A study of Mus musculus with 6 samples.

Results

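Skeletal muscle genes, the 43 genes of the contractile apparatus, calcium handling and energy supply of striated muscle fibres, were measured in 6 subcutaneous tumours on Affymetrix arrays. All 43 had at least 1 single-gene probe set among the 18194 genes with one on the array, and of several probe sets the one with the highest mean signal stands for the gene. The genes were chosen by their shared variation over these same 6 arrays, as earlier results had shown it, so that variation is given as a description and without a test. KPC1199, a cell line of mouse pancreatic ductal adenocarcinoma, gave rise to the tumours and was injected under the skin on the right of the back. The 3 lactation tumours came from mice that were pregnant or had begun to nurse at injection, and the 3 control tumours from mice of the same age that carry no such label. All were collected 20 days after injection, and the labels call them biological replicates without giving strain, or saying which mice were pregnant and which were nursing. Lactation was therefore not set apart from pregnancy. The number of arrays limits the precision.

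A muscle fibre shortens when myosin heads of the thick filament pull on actin in the thin filament, and troponin on the thin filament lets them do so only when calcium is released from the sarcoplasmic reticulum. Fibres are of fast or slow type and use different genes for the same part: Myh4, Myh1 and Myh2 encode the fast myosin heavy chains IIb, IIx and IIa, and Myh7 encodes the slow heavy chain, which the heart also uses. Troponin, the myosin light chains and calsequestrin have fast and slow forms too. In the mouse a thin sheet of skeletal muscle, the panniculus carnosus, lies beneath the skin of the back, and the deeper back muscles lie under it.

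The promoters of 4 members are printed here, the fast Myh4 and Mylpf and the slow Myoz2 and Myl3, because fast and slow genes ranked the tumours differently in the values that follow. They were chosen after their motif matches were seen. Each line gives the 250 bases before the transcription start, 5′ to 3′, from RefSeq on GRCm38.p6, and capitals mark matches to the MEF2 motif, the CArG box bound by serum response factor, or the E-box CAGCTG bound by MyoD-type factors.
Myh4: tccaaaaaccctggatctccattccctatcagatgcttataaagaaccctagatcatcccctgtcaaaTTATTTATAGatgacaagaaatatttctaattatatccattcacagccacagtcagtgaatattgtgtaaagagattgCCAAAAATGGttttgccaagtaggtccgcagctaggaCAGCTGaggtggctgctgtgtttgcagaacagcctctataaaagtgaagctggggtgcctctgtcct
Mylpf: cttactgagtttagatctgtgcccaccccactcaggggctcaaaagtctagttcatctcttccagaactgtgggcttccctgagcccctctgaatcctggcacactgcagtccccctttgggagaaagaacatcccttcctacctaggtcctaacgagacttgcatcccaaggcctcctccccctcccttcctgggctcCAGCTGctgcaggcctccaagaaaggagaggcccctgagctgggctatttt
Myoz2: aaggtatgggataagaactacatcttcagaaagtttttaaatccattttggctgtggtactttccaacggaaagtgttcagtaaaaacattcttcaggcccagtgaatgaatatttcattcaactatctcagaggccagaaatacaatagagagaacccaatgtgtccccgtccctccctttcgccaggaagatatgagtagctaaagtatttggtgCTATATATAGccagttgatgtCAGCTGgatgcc
Myl3: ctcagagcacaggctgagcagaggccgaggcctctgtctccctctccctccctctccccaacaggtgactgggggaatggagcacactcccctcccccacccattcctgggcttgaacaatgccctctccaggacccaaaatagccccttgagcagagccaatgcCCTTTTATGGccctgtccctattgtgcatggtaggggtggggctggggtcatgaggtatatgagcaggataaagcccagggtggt
The windows are chr11:67237562-67237811 on the plus strand for Myh4, chr7:127211358-127211607 on the plus strand for Mylpf, chr3:123034988-123035237 on the minus strand for Myoz2 and chr9:110763428-110763677 on the plus strand for Myl3. Myh4 held all 3 motifs, with the MEF2 match starting 182 bases, the CArG box 104 bases and the E-box 67 bases before the start. Mylpf held the E-box at 51 bases. Myoz2 held a MEF2 match at 33 bases and the E-box at 12 bases, and Myl3 a CArG box at 85 bases. No match overlapped another.

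RefSeq promoters were at hand for 31 of the 43 members, 38 windows of 300 bases (250 before and 50 after the start), searched on both strands. The E-box CAGCTG was in 19 of these 38 windows (50%), against 16.3% of all 32851 promoters of that length. A MEF2 match was in 15.8% against 3.19%, and a CArG box in 13.2% against 1.63%. Some genes have several windows: the E-box was in windows of 5 of 10 fast genes and of 3 of 8 slow genes, and no test was made between them. A match is a run of letters, and binding was not measured.

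The muscle genes differed far more between tumours of one group than between the groups. From the highest to the lowest tumour the signal of a member differed by 9.18-fold in the median, from 3.10-fold for Jph1, which ties the surface membrane to the calcium store, to 47.2-fold for Tnni1, the slow troponin I. On the log2(signal + 16) scale the range was over 2, a 4-fold span, for 40 of the 43, and this held for 2.37% of the 11623 genes that passed the level filter. The highest 2 tumours were lactation replicate 1 and control replicate 2 for 37 of the 43 members, an order found in 8.69% of genes tested. Control replicate 3 was the lowest tumour for 37 members, lactation replicate 3 for 5 and lactation replicate 2 for 1.

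**Figure D1:**
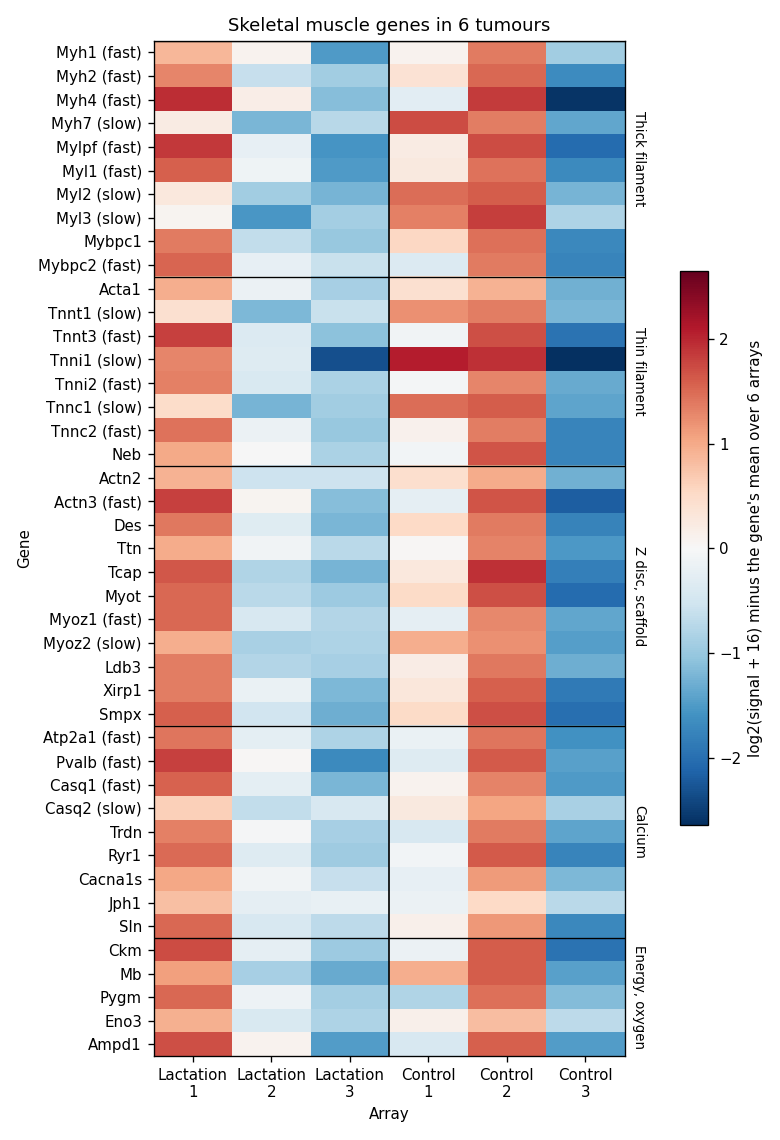
Heat map of the 43 muscle genes (rows, by role) over the 6 tumours (columns), coloured by log2(signal + 16) minus the gene's mean over the 6 arrays, red above and blue below. Lactation replicate 1 and control replicate 2 are red for nearly every gene, and control replicate 3 and lactation replicate 3 are blue. Control replicate 1 is red in the slow rows such as Myh7 and Tnni1. It is also red, more weakly, in others such as Acta1, Mb and the fast Myh2.

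The muscle score, the mean log2(signal + 16) of the 43 members on an array, was 10.99, 9.33 and 8.74 in lactation replicates 1 to 3 and 10.04, 11.18 and 8.20 in control replicates 1 to 3. Each group thus held a tumour of high score, and all 3 lactation tumours lay within the range of the 3 control tumours. The median member had a signal of 2025 in lactation replicate 1 and 265 in control replicate 3. In every tumour at least 37 of the 43 members were at or above their array's median signal, 43 of 43 in lactation replicate 1 and in control replicate 2. In bulk tissue, fewer muscle fibres and less RNA per fibre cannot be told apart.

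In the thick filament, Myh4 had signals of 13489, 3898 and 1572 in lactation tumours, against 2840, 12565 and 562 in control tumours. Mylpf, the fast regulatory light chain, had 8754, 2054 and 793 in lactation tumours, against 2772, 7899 and 573 in control tumours. Both were high in lactation replicate 1 and control replicate 2, and the groups overlapped. Myh7 had 841, 305 and 432 in lactation tumours, against 2444, 1870 and 271 in control tumours. Its highest tumour was control replicate 1, where Myh4 was lower than in control replicate 2 by a log2 difference of -2.14. Myl2, the slow regulatory light chain that also serves the heart ventricle, had 816, 345 and 276 in lactation tumours, against 1901, 2063 and 278 in control tumours, and followed Myh7 rather than Myh4. Myh1 was measured at 7767, 4487 and 1496 in lactation tumours, against 4480, 10907 and 2211 in control tumours. Its probe set carries the suffix for possible cross-hybridisation, and whether its signal is shared with other myosin heavy chain genes was not tested. Myl1, the fast essential light chain, had 13576, 4196 and 1611 in lactation tumours, against 5470, 12324 and 1413 in control tumours. Myl3, its slow counterpart, had 207, 57.1 and 97.4 in lactation tumours, against 516, 735 and 104 in control tumours. The fast light chain was high in lactation replicate 1 and control replicate 2, and the slow one in control replicates 1 and 2. Myh2 had 2477, 650 and 527 in lactation tumours, against 1318, 2926 and 307 in control tumours, with lactation replicate 1 and control replicate 2 highest as for the other fast chains. Mybpc1 and Mybpc2, the slow and fast forms of myosin-binding protein C, were both highest in lactation replicate 1 and control replicate 2.

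In the thin filament, Acta1, the skeletal alpha-actin gene, had 19111, 8732 and 5273 in lactation tumours, against 13106, 18503 and 4016 in control tumours. It varied less than most members, by 4.76-fold. Tnnt3, the fast troponin T that ties troponin to tropomyosin, had 7573, 1663 and 1006 in lactation tumours, against 2015, 7028 and 543 in control tumours. Tnnt1, its slow form, had 786, 247 and 384 in lactation tumours, against 1363, 1522 and 246 in control tumours. Control replicate 1 was thus close to control replicate 2 for the slow form and far below it for the fast form. Tnnc2, the fast calcium sensor of troponin, had 12015, 4019 and 2222 in lactation tumours, against 4797, 11376 and 1308 in control tumours. Tnnc1, the slow and cardiac sensor, had 1015, 300.5 and 375 in lactation tumours, against 2042, 2228 and 265 in control tumours. Tnni1 had 528, 158 and 28.6 in lactation tumours, against 920, 830 and 19.5 in control tumours. Tnni2, the fast form of this inhibitory subunit, had 8286, 2497 and 1847 in lactation tumours, against 3200, 8108 and 1301 in control tumours. The values of Tnni1 in lactation replicate 3 and control replicate 3 lay under those arrays' medians. Neb, the giant protein that runs along the thin filament, spanned 11.5-fold with the order of the fast genes.

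At the Z disc, where thin filaments are anchored, all 11 members had lactation replicate 1 and control replicate 2 as their highest tumours. Actn3, the alpha-actinin of fast fibres, had 5591, 1669 and 718 in lactation tumours, against 1351, 5063 and 338 in control tumours. Actn2, the alpha-actinin of all fibres and the heart, spanned 5.07-fold, and Actn3 16.5-fold. Des, the intermediate filament protein desmin that links Z discs, had 4100, 1241 and 667 in lactation tumours, against 2271, 4096 and 445.5 in control tumours. Ttn, the giant spring titin, had 3118, 1489 and 959 in lactation tumours, against 1623, 3930 and 538 in control tumours. Tcap, the titin cap, had 2771, 500 and 365 in lactation tumours, against 1071, 3409 and 239 in control tumours. Titin varied by 7.31-fold and its cap by 14.3-fold. Myoz1 and Myoz2, the fast and slow calsarcins that link calcineurin to the Z disc, spanned 7.99-fold and 7.36-fold. Myot, the Z-disc protein myotilin, spanned 14.8-fold, Smpx, a small muscle protein, 14.8-fold, and Ldb3, a PDZ and LIM domain protein, 7.11-fold. In all of these control replicate 3 was lowest. Xirp1, an actin-binding repeat protein, was the only member under the level filter, with 2 arrays at or above the median.

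All 9 members of excitation and calcium handling had those same 2 tumours highest. Atp2a1, the calcium pump of fast fibres, had 3907, 1213 and 819 in lactation tumours, against 1293, 3923 and 467 in control tumours. Pvalb, the calcium buffer parvalbumin of the fastest fibres, had 3163, 918 and 269 in lactation tumours, against 704, 2814 and 322 in control tumours. Casq1 and Casq2, the skeletal and the slow and cardiac calsequestrins that store calcium, spanned 9.02-fold and 4.42-fold. Ryr1, the calcium release channel, and Cacna1s, its voltage sensor, spanned 11.5-fold and 6.00-fold. Sln, sarcolipin, a small regulator of the calcium pump, had 2729, 703 and 583 in lactation tumours, against 1044, 2128 and 280 in control tumours. Trdn, the anchor triadin of the release channel, spanned 7.36-fold. None of these genes separated the groups. Of the 5 genes of energy and oxygen supply, Ckm, the muscle creatine kinase, had 10528, 2694 and 1615 in lactation tumours, against 2836, 9611 and 803 in control tumours. Mb, the oxygen store myoglobin, had 3365, 854 and 611 in lactation tumours, against 3052, 4779 and 574 in control tumours. Mb in control replicate 1 was close to that in lactation replicate 1, where Ckm was not. Pygm had 1170, 364 and 205 in lactation tumours, against 223, 1124 and 171 in control tumours. Eno3, the muscle enolase of glycolysis, spanned 3.41-fold. Ampd1, the muscle AMP deaminase, had 688, 215 and 61.8 in lactation tumours, against 147, 638 and 62.3 in control tumours. In Pygm and Ampd1 control replicate 1 lay below lactation replicate 2.

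The fast and slow genes thus ranked the tumours differently. All 14 fast members had lactation replicate 1 and control replicate 2 as their highest tumours. For 6 of the 8 slow members these were control replicates 1 and 2, an order found in 4.06% of genes tested. Between control replicates 1 and 2 the log2 difference was -1.51 in the median of the fast members, with a range from -2.14 for Myh4 to -1.14 for Myh2. It was -0.14 in the median of the slow members, with a range from -0.77 for Casq2 to 0.38 for Myh7, so the 2 ranges did not meet. Mybpc1, the slow form of myosin-binding protein C, is in neither list. Its difference was -0.91, between the 2 ranges, and its highest tumours were lactation replicate 1 and control replicate 2, as for the fast genes. Between lactation replicate 1 and control replicate 2 the median was 0.12 for fast and -1.03 for slow members. The fast members lay within -0.49 to 0.26 between these 2 tumours, and all 8 slow members were lower in the lactation tumour, by -1.75 to -0.26. The 21 members placed in neither list had differences between control replicates 1 and 2 from -2.25 for Pygm, the muscle glycogen phosphorylase, to -0.50 for Acta1. Each of these differences compares single arrays and has no replicate check.

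**Figure D2:**
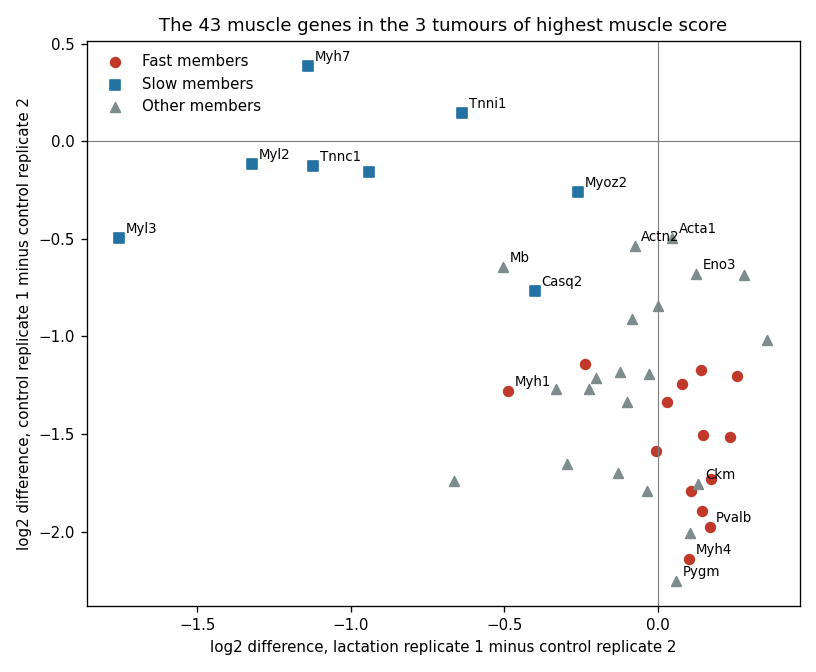
Each point is 1 of the 43 muscle genes, with the log2 difference of lactation replicate 1 minus control replicate 2 on the horizontal axis and of control replicate 1 minus control replicate 2 on the vertical axis, in log2(signal + 16) units. Fast members (red circles) lie at the lower right between -2.14 and -1.14 on the vertical axis, and slow members (blue squares) lie above them between -0.77 and 0.38.

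Mean log2 levels of the 14 fast genes were 12.37, 10.63 and 9.70 in lactation tumours and 10.78, 12.31 and 9.12 in control tumours. Those of the 8 slow genes were 9.10, 7.57 and 7.57 in lactation tumours and 9.88, 10.05 and 7.19 in control tumours. The fast score spanned both groups alike, and the slow score was high in 2 control tumours. Different probe sets have no common scale, so the difference between the scores is read only from tumour to tumour. Fast minus slow was 3.27, 3.06 and 2.12 in lactation tumours (mean 2.82 ± 0.61, SD, n = 3) and 0.90, 2.26 and 1.93 in control tumours (mean 1.70 ± 0.71, SD, n = 3). Lactation was higher by 1.12, and the groups overlapped through lactation replicate 3 and control replicate 2. Without control replicate 1 the difference was 0.72, and without lactation replicate 1 and control replicate 2 together it was 1.18.

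**Figure D3:**
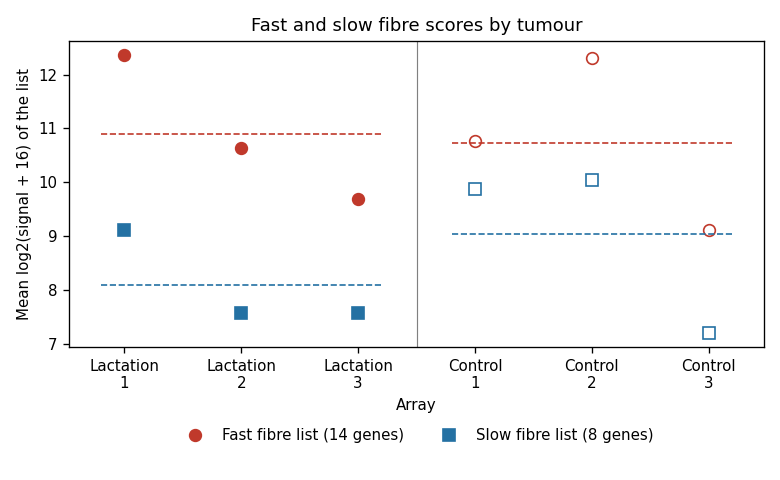
Mean log2(signal + 16) of the 14 fast genes (red circles) and the 8 slow genes (blue squares) in each tumour, filled for lactation and open for control, with dashed lines at the group means. The fast score reaches 12.37 in lactation replicate 1 and 12.31 in control replicate 2, and the slow score is highest in control replicates 1 and 2, at 9.88 and 10.05.

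The 2 lists hold 8 pairs of a fast and a slow form of the same protein. The log2 difference of fast minus slow was lowest in control replicate 1 in 7 of the 8 pairs, the calsequestrins being the exception. Myh4 minus Myh7 was 3.98, 3.61 and 1.83 in lactation tumours and 0.22, 2.74 and 1.01 in control tumours. Tnnc2 minus Tnnc1 was 3.54, 3.67 and 2.52 in lactation tumours and 1.23, 2.34 and 2.23 in control tumours, and this was the only one of the 8 pairs whose groups did not overlap. Among single genes the groups did not overlap in 6.90% of those tested, and no such share was worked out for pairs. The troponin I pair had another order. Tnni2 minus Tnni1 was 3.93, 3.85 and 5.38 in lactation tumours and 1.78, 3.26 and 5.21 in control tumours. It was highest in lactation replicate 3 and control replicate 3, where the slow Tnni1 was under the array median. Mybpc2 minus Mybpc1, a pair outside the 8 and added after the values were seen, was 0.69, 0.96 and 0.94 in lactation tumours and -0.39, 0.43 and 0.47 in control tumours. It too was lowest in control replicate 1, and its groups did not overlap, although Mybpc1 itself differed between lactation and control by only -0.20, against a slow median of -1.01. With Mybpc1 counted as slow, the difference of fast minus slow between the groups was 1.04. The mean was higher in lactation in all 8 pairs, by 0.35 for Casq1 minus Casq2 to 1.82 for Myh4 minus Myh7. The pairs share the same 6 arrays and are not independent, and no test was made over them.

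**Figure D4:**
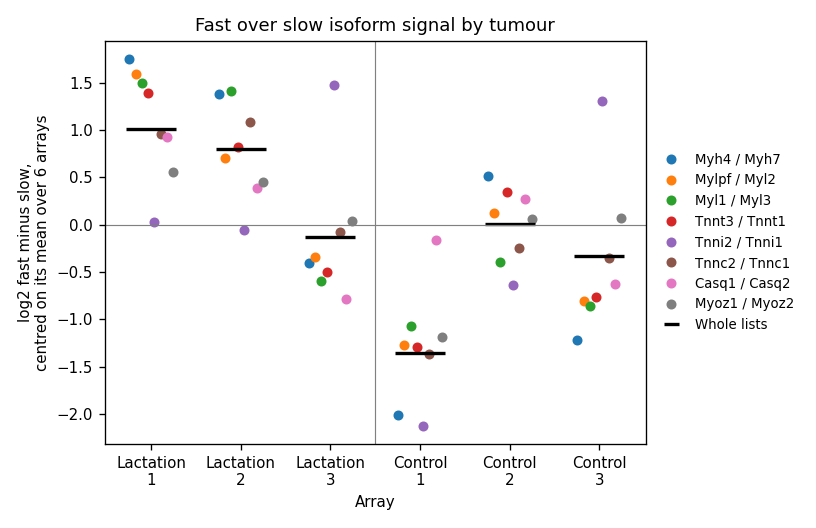
Log2 difference of the fast minus the slow isoform for 8 pairs (coloured points) and for the whole lists (black bars) in each tumour, each centred on its own mean over the 6 arrays. Control replicate 1 lies lowest for 7 of the 8 pairs, and lactation replicates 1 and 2 lie at or above 0 for most pairs.

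Over the 6 arrays the median Pearson correlation of the 903 pairs of members was 0.95, from 0.416 to 0.999, and the median Spearman correlation was 0.89. The Pearson median was 0.97 among fast members, 0.94 among slow members and 0.75 between fast and slow members, and the Spearman median 0.94, 0.83 and 0.77. Without lactation replicate 1 and control replicate 2, the 2 tumours of highest score, the Pearson medians over 4 arrays were 0.93, 0.96 and 0.66 and that of all pairs was 0.86. The Spearman medians of the 3 sets over these 4 arrays were all 0.8, so the ranks showed no lower value between fast and slow members. These values share the same arrays and are given as a description.

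The members' other probe sets, which do not enter the values above, were 28 for 15 genes. They come from the same arrays and genes and are no independent check of the choice. Of these 15 were at or above the array median on at least 3 arrays, and 12 of the 15 had lactation replicate 1 and control replicate 2 as their highest tumours. Their correlation with the score made without their own gene was 0.96 in the median and at least 0.86. A further 2 of the 15 belong to Myl3, the slow essential light chain, and both were highest in control replicates 1 and 2 like its chosen probe set. One of them had 210, 66.1 and 92.1 in lactation tumours, against 351, 525 and 42.6 in control tumours. The last of the 15 belongs to Ttn, which is in neither the fast nor the slow list. It had 117, 112 and 75.8 in lactation tumours, against 122, 194 and 40.8 in control tumours. Its highest tumours were thus control replicates 1 and 2 too, unlike those of the chosen Ttn probe set. The other 13 probe sets lay below that level, with a median correlation of 0.25.

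The group comparison asks whether muscle transcripts differed between tumours of lactating and control hosts. No member passed the test over all genes. Of 11623 genes tested with limma, 0% (0 genes) had a Benjamini-Hochberg adjusted p under 0.05, and of the 42 members above the level filter 0 did, with a lowest adjusted p of 0.9998. At an unadjusted p under 0.05 there were 0 of the 42 members and 2.27% of all genes. The groups did not overlap in 0 of the 42, against 6.90% of all genes (3.71% higher and 3.19% lower in lactation). The mean was higher in lactation for 21 of the 42 and lower for 21, beside 48.3% higher over all genes tested. The median log2 difference was 0.02, beside -0.01 over all genes tested. With Xirp1 included and no filter the median was -0.01. The standard error of a member's difference was 0.84 in the median, against 0.14 over all genes.

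By role, the largest lower means in lactation were slow genes. All 8 slow members had lower means in lactation, with a median log2 difference of -1.01, and 0 of them passed. Of all genes tested 48.3% had a higher mean in lactation. The slow members varied together, with a median Pearson correlation of 0.94, so the 8 are not separate observations. Myl3 had a mean signal of 120 ± 77.3 in lactation and 451 ± 320 in controls (SD, n = 3 each), or -1.56 on the log2 scale (standard error 0.72). It was at or above the array median on 4 arrays. Myl2 differed by -1.25, Myh7 by -1.14 and Tnnc1 by -1.12. Among the 14 fast members 11 had higher and 3 lower means, with a median of 0.15. Myh4 had the largest, with 6319 ± 6317 in lactation and 5322 ± 6375 in controls, or 0.67 on the log2 scale (standard error 1.18). The direction over all members depended on single tumours. The median of the 42 was -0.69 without lactation replicate 1 and -0.73 without control replicate 3, with all 42 lower in both, and 0.71 without control replicate 2, with 35 higher. It was 0.49 without lactation replicate 3 and 0.14 without lactation replicate 2. The slow median was below 0 in all 6 fits that left out a tumour, at -0.80 without lactation replicate 2, -0.89 without lactation replicate 3, -0.55 without control replicate 1, -0.52 without control replicate 2, -1.58 without lactation replicate 1 and -2.10 without control replicate 3. The count of 8 lower did not hold in 2 of these fits: 2 of the 8 were higher in lactation without control replicate 2, and 1 of the 8 without lactation replicate 3.

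Most muscle genes outside the member list followed it. They come from the same arrays and were listed with earlier results of these data known, so they are no independent check. Of 52 further genes of mature muscle 48 had a named probe set here. Lactation replicate 1 and control replicate 2 were the highest tumours for 41 of the 48, against 8.69% of genes tested. The list's score was 9.55, 8.10 and 7.74 in lactation tumours and 8.68, 9.56 and 7.46 in control tumours. Of 43 tested 16 had higher and 27 lower means in lactation, with a median of -0.08, and 0 passed. Trim63, a ubiquitin ligase of the sarcomere, had 1837, 355 and 194 in lactation tumours, against 538, 2115 and 62.8 in control tumours. Csrp3, a Z-disc protein abundant in slow fibres and heart, had 1166, 234 and 274 in lactation tumours, against 1540, 1640 and 174 in control tumours, the order of the slow genes. It is 1 gene, shown for that order and not for its range, so it is no outside check of the fast and slow difference. Fabp3 and Ankrd2 of the same list were highest in lactation replicate 1 and control replicate 2. The tropomyosin genes Tpm1, Tpm2 and Tpm3 and the calcium pump gene Atp2a2, all also used outside muscle, had log2 ranges of 0.15 to 0.53 by the chosen probe sets and did not follow the score.

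Among 12 measured genes of myogenic regulation, Myf6, the regulator of mature fibres, had 579, 87.3 and 56.2 in lactation tumours, against 143, 648 and 6.75 in control tumours, and followed the fast genes. Myog, the regulator of myoblast differentiation, had 391.8, 74.5 and 44.9 in lactation tumours, against 314, 307 and 39.6 in control tumours. Cdh15, the cadherin of satellite cells and myoblasts, had 228, 84.2 and 93.4 in lactation tumours, against 321, 145 and 101 in control tumours. Control replicate 1 was above control replicate 2 in both, for Myog by a log2 difference of only 0.03. Over the 12 regulators this difference had a median of 0.03, from -2.06 for Myf6 to 1.06 for Cdh15. Myh3, the embryonic myosin heavy chain, had 194, 74.5 and 22.2 in lactation tumours, against 189, 116 and 3.40 in control tumours, and so was also higher in control replicate 1 than in control replicate 2. Its list of 12 developmental and cardiac isoforms went both ways, with a median of 0.11 between these tumours. Myh8 was lower in control replicate 1 by a log2 difference of -1.31 and Myl4 by -0.47. Pax7, the satellite cell factor, lay below the array medians in every tumour, as did Myh6, the atrial myosin heavy chain. Of the 8 regulators tested 2 had higher and 6 lower means in lactation, and 0 passed.

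Among markers of other tissues that could lie beside a tumour of the back, adipocyte genes moved in part with the muscle score, with a Pearson correlation of 0.61 over the 6 arrays, against -0.20 for smooth muscle and -0.80 for keratinocyte genes. These values are for the mean of each list. Single adipocyte genes that passed the level filter, 5 of the 8 measured, correlated from 0.06 for Retn to 0.85 for Plin4. Single keratinocyte genes correlated from -0.71 for Krt15 to -0.05 for Krt5, and only 4 of the 8 measured passed the level filter. The 8 measured adipocyte genes had a score of 7.71, 7.997 and 7.19 in lactation tumours and 6.97, 8.22 and 7.04 in control tumours, and their summed signal ranged from 3495 to 5944 in lactation and from 3159 to 7821 in controls. Adipoq, the adipocyte hormone adiponectin, had 188, 436 and 177 in lactation tumours, against 64.5, 351 and 88.1 in control tumours. Of the 8 genes 5 were at or above the array median in each lactation tumour, and 3, 5 and 3 in control tumours. The 8 smooth muscle genes had scores between 9.17 and 9.41 in lactation and between 9.04 and 9.34 in controls, and 0 of them had a range over 1 on the log2(signal + 16) scale. The score of 8 keratinocyte genes was 7.10, 7.23 and 7.69 in lactation tumours and 7.09, 6.98 and 7.37 in control tumours, highest within each group in replicate 3, where the muscle score was lowest. Their summed signal ranged from 5221 to 9983 in lactation and from 4488 to 8764 in controls, mostly Krt14, while Krt1 of the outer epidermis was at most 3.20. Krt5, a basal keratin, had 347, 331 and 838 in lactation tumours, against 269, 242 and 147 in control tumours. Its groups did not overlap (limma unadjusted p 0.028, adjusted p 0.9998), and in controls it was lowest in replicate 3, unlike the list's score. The ductal keratin genes Krt8 and Krt18 and 5 further genes of ductal epithelium were above the array median in every tumour, with scores from 12.63 to 13.35 in lactation and 12.57 to 12.99 in controls. Of 7 milk and mammary genes 0 passed the level filter, and their summed signal was 159, 1253 and 252 in lactation tumours and 229, 233 and 187 in control tumours, with Csn2, a casein gene, at 333 in lactation replicate 2 and at most 26.95 elsewhere. The 4 measured Schwann cell genes had a summed signal from 1697 to 2236 in lactation and from 1393 to 2675 in controls. The part of these tissues in the muscle values was not tested.

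**Figure D5:**
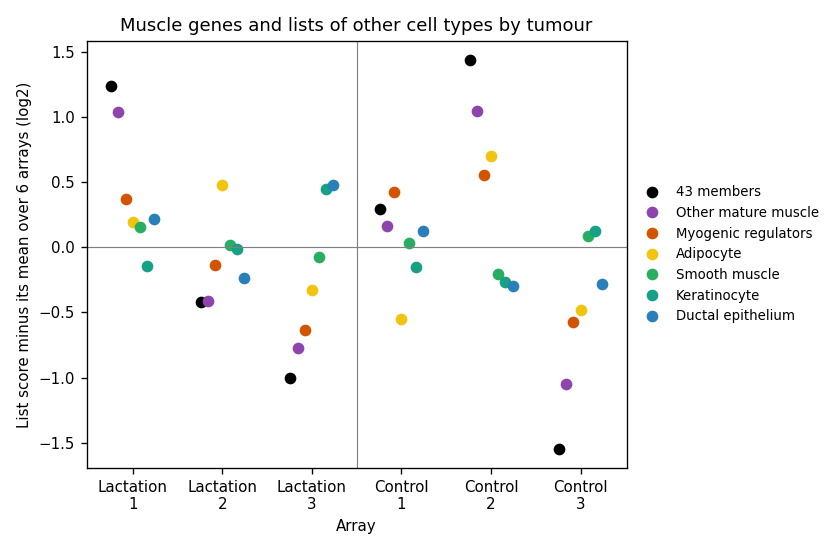
Score of the 43 muscle genes and of 6 other gene lists in each tumour, as the mean log2(signal + 16) minus the list's mean over the 6 arrays. The other mature muscle genes follow the members in every tumour, smooth muscle genes stay near 0, and keratinocyte genes are highest in lactation replicate 3.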

How the data were processed

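Total RNA of 6 tumours was labelled with biotin and hybridised to Affymetrix mouse arrays, 1 tumour an array. The deposited values are linear intensity signals from MAS5, per the submitters' processing notes, 1 for each of 45101 probe sets, and their mean after trimming 2% at each end was 500.0 on every array. No detection calls were used, and no further normalization was applied. The platform annotation table gave 34958 probe sets a single gene, 932 several and 9211 none. A gene took the probe set of highest mean log2(signal + 16), which understates changes at low signal, and genes at or above the array median on at least 3 of 6 arrays were tested (11623 of 18194). Groups were compared with limma 3.58.1 (lmFit, eBayes with a trend, Benjamini-Hochberg adjustment) in R 4.3.3, which was tested on simulated data. Tables and figures were made in Python 3.11.15. Array medians were 99.3 to 111. Up to 0.0022% of values were identical between any 2 arrays, so none was a copy of another.

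Members and gene lists were chosen with earlier results of these data known. All members could be named, with values on every array for those of widest range and for fast and slow pairs. Of other genes, the 10 whose pattern was most like the muscle score were named, from those with an SD of at least 0.5. From each other list, genes of the widest range over the arrays could be named. Further genes of these lists, among them Csrp3, Cdh15, Pax7 and Myh6, were named outside that rule. Alternatives changed the added constant, filter, normalization, probe set rule, variance model and tumours included. Whether the tumours come from separate mice is given only as the label of biological replicates. Promoter windows came from RefSeq on GRCm38.p6.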

Additional observations from a re-analysis of the deposited data

How the results depend on the processing

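With 3 tumours a group and muscle genes that differ severalfold between tumours of 1 group, the precision of every group difference is limited. In each alternative run, 0 genes passed the adjusted p, and the number at an unadjusted p under 0.05 was 264 as reported and 137 to 652 otherwise. Leaving out 1 tumour at a time gave a median member difference of -0.73 to 0.71, a fast minus slow difference of 0.72 to 1.47, a score range of 2.43 to 2.97 and a median correlation of 0.93 to 0.97. Other settings gave -0.03 to 0.02 for the member median and 1.03 to 1.16 for fast minus slow. Leaving out lactation replicate 1 and control replicate 2 together, a choice made after seeing the data, gave a score range of 1.83 and a median correlation of 0.86. The score ranges of runs that left out tumours are over the 42 tested members, without Xirp1, which the muscle score above includes. Counting Mybpc1 among the slow genes, also chosen after seeing the data, gave a fast minus slow difference of 1.04. All 42 tested members were lower in lactation without lactation replicate 1, and 35 were higher without control replicate 2. The range of each gene was worked out for only part of the members. Of these, 10 turned in sign when 1 tumour was left out: Acta1 (-0.70 to 0.40), Ckm (-0.54 to 1.24), Myh4 (-0.45 to 1.77), Mylpf (-0.94 to 0.93), Myl1 (-0.86 to 0.72), Tnnt3 (-0.69 to 1.14), Tnnc2 (-0.63 to 0.92), Tnni2 (-0.59 to 0.72), Tnni1 (-2.46 to 0.018) and Des (-1.01 to 0.57). Averaging all probe sets of a gene gave -0.073 for Tnni2 (the cause was not tested). Myh7, Myl2, Myl3, Tnnt1, Tnnc1 and Mb stayed negative in every setting run. Same-numbered tumours deviated together with correlations of 0.14, -0.08 and 0.27 over 11623 genes, and differently numbered ones with -0.47 to 0.46. The highest, 0.46, was that of lactation replicate 1 with control replicate 2, the 2 tumours of highest muscle score. With so few tumours these values cannot decide whether the numbers pair them. With the replicate number as a block 0 genes passed, 289 had an unadjusted p under 0.05, the member median was 0.02 and fast minus slow 1.12.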

Other observations

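Outside the member list, the 10 genes whose pattern over the 6 arrays was most like the muscle score had Pearson correlations from 0.993 to 0.998, out of 630 genes with an SD of at least 0.5. They were Srl, Klhl41, Cox6a2, Neurl1a, Tmod1, Tmem182, Mustn1, Eef1a2, Pdlim3 and Lmod2, and 5 of them belong to the further list of mature muscle genes. Cox6a2, a muscle form of a cytochrome oxidase subunit, had 2328, 663 and 472 in lactation tumours, against 1054, 2315 and 339 in control tumours. Eef1a2, the elongation factor form of muscle and neurons, had 1616, 658 and 423 in lactation tumours, against 826, 1525 and 340 in control tumours. Klhl41, a sarcomere assembly protein, had 1503, 464 and 272 in lactation tumours, against 817, 1612 and 186 in control tumours. All 3 were highest in lactation replicate 1 and control replicate 2 and lowest in control replicate 3, with groups that overlap. Of the 630 genes, 104 correlated with the score above 0.9 and 12 below -0.9. These genes were picked for the likeness, so the values are a description.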
